A study of Homo sapiens with 6 samples.

Results

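The genes described here are the chromatin modifying enzymes and their closest partners: histone methyltransferases and demethylases, histone acetyltransferases and deacetylases, sirtuins, arginine methyltransferases, the enzymes that write and remove DNA methylation, CHD remodellers and bromodomain proteins. They were taken by name alone, as every gene whose symbol fits a pattern of family names (for example KDM, KMT2, HDAC, SETD, SIRT, KAT, PRMT, CHD and BRD). No measured value entered the pattern, but it was chosen with earlier results of these data known. The pattern matched 108 of the 26255 genes in the table. It takes some members that are not enzymes acting on histones: EED and SUZ12 are non-catalytic subunits, most BRD proteins read acetylated lysine, SETD3 methylates actin, and SIRT3, SIRT4 and SIRT5 work in mitochondria.

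RNA was sequenced from H1299 cells, a human non-small cell lung cancer line that lacks p53, in 6 libraries. The shControl group (3 libraries) carried a pSilencer vector with a control shRNA, and the shEphexin1 group (3 libraries) carried an shRNA against Ephexin1, a guanine nucleotide exchange factor encoded by NGEF. Both groups were stably transfected. The names of the 3 shEphexin1 samples share 1 stem, so they may be 3 cultures of 1 clone, in which case the effect of the shRNA and that of picking a clone cannot be told apart, and the p-values measure the spread between these libraries, which may be technical. All values are FPKM, fragment counts scaled by transcript length and library size, so the number of reads behind a value is unknown.

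Chromatin is the packing of DNA on histone proteins. Writers add methyl or acetyl groups to histone tails, erasers remove them, and readers bind the marked tails. Methylation of histone H3 at lysine 4 marks promoters and enhancers and is placed by the KMT2 and SETD1 enzymes, while PRC2, with EZH2 or EZH1 as its catalytic subunit, methylates lysine 27 of H3 at silenced genes. Acetyltransferases such as CREBBP, EP300 and KAT7 open chromatin, and deacetylases such as HDAC1 and HDAC2 oppose them, often within the NuRD complex together with the remodeller CHD4. Many of these genes are mutated or used as drug targets in cancer.

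The targeted gene was checked first. The shControl libraries had 13.3, 11.7 and 16.4 FPKM of NGEF and the shEphexin1 libraries 9.81, 8.25 and 10.5 FPKM, replicates 1 to 3 in that order here and in all values that follow. The groups did not overlap, and 68.9% of the control mean was left. The log2 fold change was -0.53 with a standard error (SE) of 0.163, and the limma adjusted p was 0.103. A limma fit with the replicate number as a block gave an adjusted p of 0.00284. Markers of the line were read as a check. The mesenchymal marker list was detected (3 of 3 genes at 1 FPKM or more in some library), and the epithelial list in part (2 of 5), with CDH1 listed at 0. In the blood list 1 of 4 genes (LYZ) reached 1 FPKM in some library, with a summed level of at most 1.47 FPKM, and PTPRC and CD3E were listed at 0. No gene of the endothelial (3 genes) or fibroblast (3 genes) lists reached 1 FPKM. The libraries held between 16958 and 17509 genes above 0.

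Of the 108 members, 105 passed the filter, a value of 0.1 FPKM or more in 3 or more libraries. PRMT8, a brain arginine methyltransferase, and SMYD1, a muscle methyltransferase, were listed at 0 in every library, and KDM5D did not pass and its level is not given. Of the rest, 5 members had a mean under 1 FPKM, 42 lay from 1 to under 10 FPKM, 44 from 10 to under 30 FPKM and 14 at 30 FPKM or above. The median of the mean level was 11.2 FPKM over the members tested and 6.97 FPKM over the 16020 genes tested. The most abundant member of its list was PRMT1 among arginine methyltransferases, CHD4 among CHD remodellers, HDAC1 among zinc-dependent deacetylases, BRD2 among bromodomain proteins, KDM1A among lysine demethylases and UHRF1 among the DNA methylation genes.

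**Figure D1:**
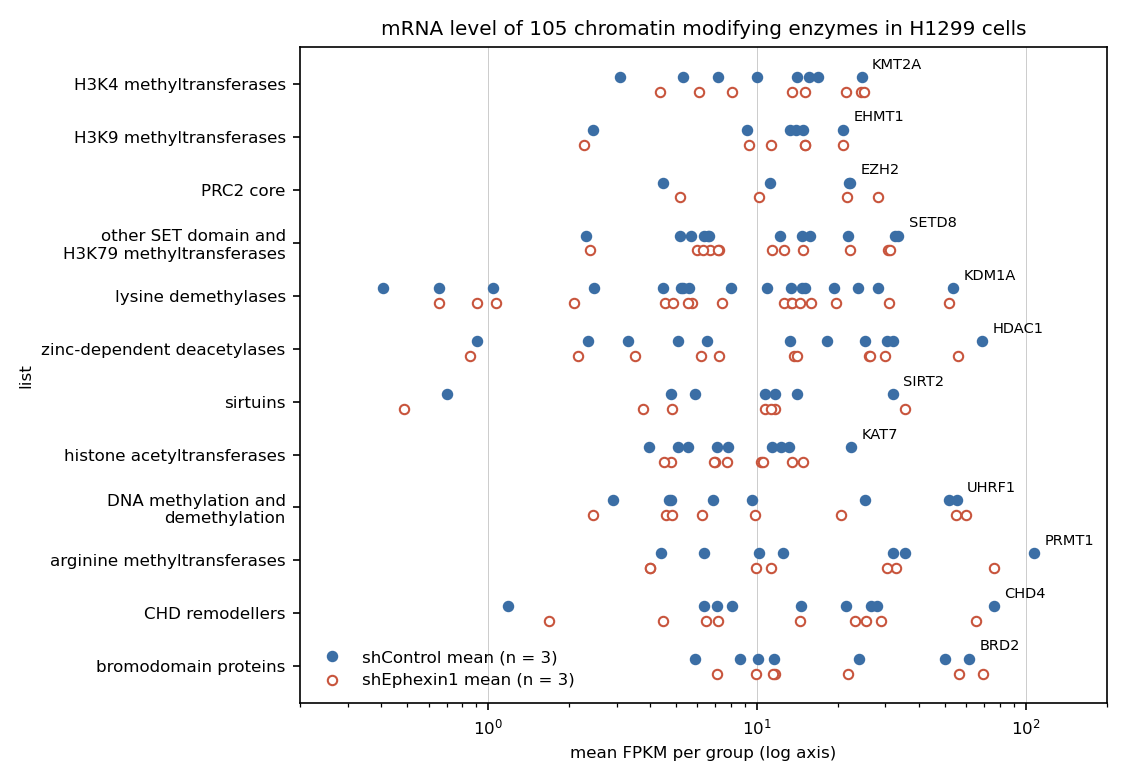
Mean FPKM of each member tested (log axis) in shControl (filled points) and shEphexin1 (open points), 3 libraries each, in a row per list with the member highest in shControl named. Most members sit between 1 and 30 FPKM, and PRMT1 is the most abundant.

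The promoter sequences of 6 members are shown so that the letters upstream of them can be read. They are the 3 that rose and the 3 that fell with the smallest adjusted p in each direction with the replicate block (limma). Each run holds the 250 bases before the annotated start from RefSeq on GRCh38.p14, 5′ to 3′ on the gene's own strand. Capitals mark matches on either strand to GGGCGG (bound by SP and KLF factors), CCAAT (bound by NF-Y) and CCGGAAG (bound by ETS factors). Neighbouring matches may overlap. The letters TGACGTCA and TTTCGCGC, for CREB and E2F factors, were also searched. KMT2B, KMT2E and EZH2 rose, and PRMT1, KDM5A and KAT7 fell.
KMT2B (chr19:35717753-35718002, plus strand): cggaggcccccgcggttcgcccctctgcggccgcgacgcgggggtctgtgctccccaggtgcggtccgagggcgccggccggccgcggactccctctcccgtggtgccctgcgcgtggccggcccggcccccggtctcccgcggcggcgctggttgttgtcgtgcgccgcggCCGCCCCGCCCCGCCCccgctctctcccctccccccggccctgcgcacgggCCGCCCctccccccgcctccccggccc
KMT2E (chr7:105013955-105014204, plus strand): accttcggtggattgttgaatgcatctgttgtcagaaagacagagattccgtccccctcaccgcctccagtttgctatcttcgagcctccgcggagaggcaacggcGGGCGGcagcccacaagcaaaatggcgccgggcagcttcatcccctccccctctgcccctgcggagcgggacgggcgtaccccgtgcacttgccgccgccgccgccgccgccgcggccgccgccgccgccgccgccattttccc
EZH2 (chr7:148884292-148884541, minus strand): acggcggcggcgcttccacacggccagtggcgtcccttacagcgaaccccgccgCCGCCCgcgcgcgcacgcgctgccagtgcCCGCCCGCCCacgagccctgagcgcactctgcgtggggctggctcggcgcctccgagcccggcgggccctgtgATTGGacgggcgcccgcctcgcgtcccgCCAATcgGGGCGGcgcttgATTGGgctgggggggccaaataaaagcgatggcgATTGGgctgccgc
PRMT1 (chr19:49677021-49677270, plus strand): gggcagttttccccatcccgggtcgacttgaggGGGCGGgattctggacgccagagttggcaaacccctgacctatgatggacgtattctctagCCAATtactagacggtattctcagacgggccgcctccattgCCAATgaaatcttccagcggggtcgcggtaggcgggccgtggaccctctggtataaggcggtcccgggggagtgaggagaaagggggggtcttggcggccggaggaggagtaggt
KDM5A (chr12:389321-389570, minus strand): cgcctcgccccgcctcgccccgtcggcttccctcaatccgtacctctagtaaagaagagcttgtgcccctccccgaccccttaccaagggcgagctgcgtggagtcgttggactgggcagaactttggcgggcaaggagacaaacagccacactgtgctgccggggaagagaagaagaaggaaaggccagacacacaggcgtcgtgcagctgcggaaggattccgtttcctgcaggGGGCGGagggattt
KAT7 (chr17:49788431-49788680, plus strand): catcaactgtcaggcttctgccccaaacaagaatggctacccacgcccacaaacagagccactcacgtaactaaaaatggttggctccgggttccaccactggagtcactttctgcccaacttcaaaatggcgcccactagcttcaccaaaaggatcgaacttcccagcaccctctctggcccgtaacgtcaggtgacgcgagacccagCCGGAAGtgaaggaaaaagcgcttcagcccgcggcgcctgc

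GGGCGG was found in 42.3% of all 27305 promoters of this length and in 64.9% of the 94 members tested with a promoter entry, among them KMT2B with 4 matches, EZH2 with 4, and KMT2E, PRMT1 and KDM5A with 1 each. CCAAT was found in 33% of all promoters and in 29.8% of those of the members. EZH2 had 4 CCAAT matches and PRMT1 had 2. CCGGAAG was found in 8.82% of all promoters and 14.9% of members, and KAT7 had 1 match 41 bases before the start. TGACGTCA stood in 1.77% of all promoters and 2.13% of members, and TTTCGCGC in 0.469% and 0%. The median GC content was 58% over all promoters and 67% over the members, with medians of 11 and 23.5 CpG. A match is a description of the letters. Of the 21 members with an entry that passed with the block, 15 held GGGCGG and 5 held CCAAT.

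The differences between the groups were small. No member passed at an adjusted p of 0.025 with a fold of at least 2 (limma; 1.89% of all genes tested did, and 15 members passed an unadjusted p of 0.05, where 23.3% of genes did), and none did with the replicate block either, where 3.47% of genes passed. At an adjusted p of 0.05 with no fold threshold, 3 members fell and none rose (CHD7, KAT7 and KDM5A), where 7.01% of all genes tested passed (2.69% higher and 4.32% lower). Without shControl replicate 1, shEphexin1 replicate 1 or shEphexin1 replicate 3 no member passed, where 0.968%, 1.22% and 1.92% of genes did. Without shControl replicate 3 CHD7 alone passed (1.83% of genes), and without shControl replicate 2 CHD7 and KMT2E did (4.04% of genes). Without shEphexin1 replicate 2 CHD7, KAT7, KDM5A and KMT2B did (4 members, 8.2% of genes). The median log2 fold change of the 105 members was -0.01, as over all genes tested, and the median absolute log2 fold change was 0.139 against 0.244 over all genes tested. In all, 97 of 105 members stayed within a log2 fold change of 0.5, and the whole range ran from -0.84 to 0.64. Groups did not overlap for 29 members (12 higher and 17 lower, 27.6%), against 28.3% of all genes tested (12.8% higher and 15.4% lower). In same-numbered pairs, 30 members were higher and 36 lower in 3 of 3, where 62.2% of all genes tested moved 1 way (29.2% higher and 33.0% lower).

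The same-numbered libraries of the 2 groups deviated together, as described in the processing notes, so the fit with the replicate number as a block is given beside each result. With the block, 25 members passed at an adjusted p of 0.05 (limma), 11 higher and 14 lower. That is 23.8% of the members, where 33.5% of all genes tested passed (13.8% higher and 19.7% lower), so the share of members that passed was below the background. The rises were small, between 0.17 and 0.64 on the log2 scale, and the falls ran from -0.21 to -0.84. The block fit that picked these 25 uses the same pairs, so their 3 of 3 pairs moving 1 way is a description and no further support. Of the 25, 17 had groups that did not overlap. The other 80 members lay between -0.39 and 0.62, and 71 of them were within 0.25.

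The block leans on 3 pairs, and leaving out a pair changed calls. Without pair 1, 14 members passed (19.9% of genes). Without pair 2, 22 passed (25.7% of genes), and without pair 3, 17 passed (24.9% of genes). CHD7, EZH2, HDAC1, HDAC8, HDAC10, KAT7, KDM5A, KMT2B, KMT2C, KMT2E, PRMT1 and UHRF2, 12 in all, passed in all 3 fits. Their highest limma adjusted p lay between 0.0048 for PRMT1 and 0.0425 for HDAC10. The share of all genes that passed in all 3 was not counted, so these 12 have no background beside them. CHD4, KAT8 and PRMT6 passed in 2 of the 3 fits. BRD2, BRD8, CREBBP, DOT1L, KDM5B, PRMT5, SETD1B, SIRT1 and SMYD5 passed in 1 and KAT6B in 0.

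**Figure D2:**
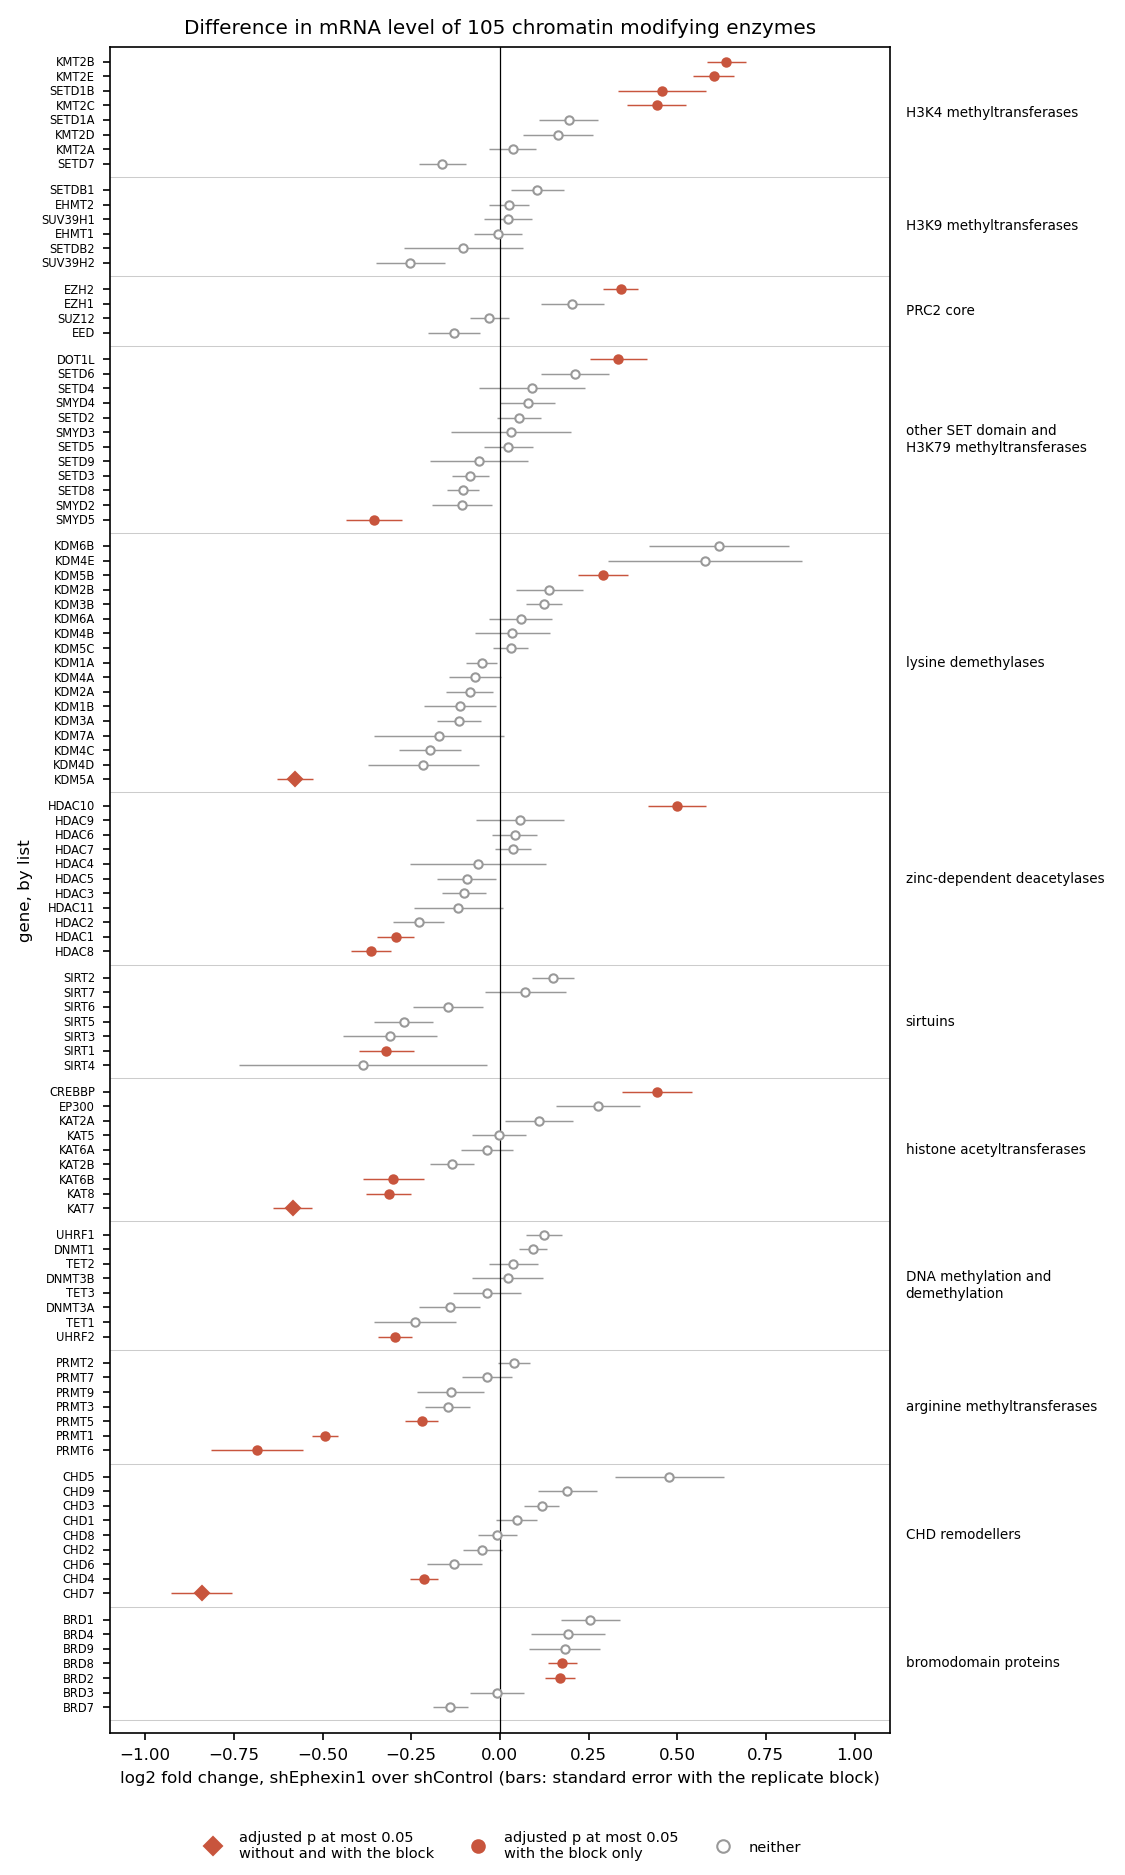
Log2 fold change of each member tested (shEphexin1 minus shControl, log2 of FPKM + 0.1), 1 row per gene grouped by role, with the members that passed marked in red. Bars are the SE with the block, and diamonds are the 3 members that also passed without it. H3K4 methyltransferases with a call lie right of 0 and arginine methyltransferases with a call lie left of 0.

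**Figure D3:**
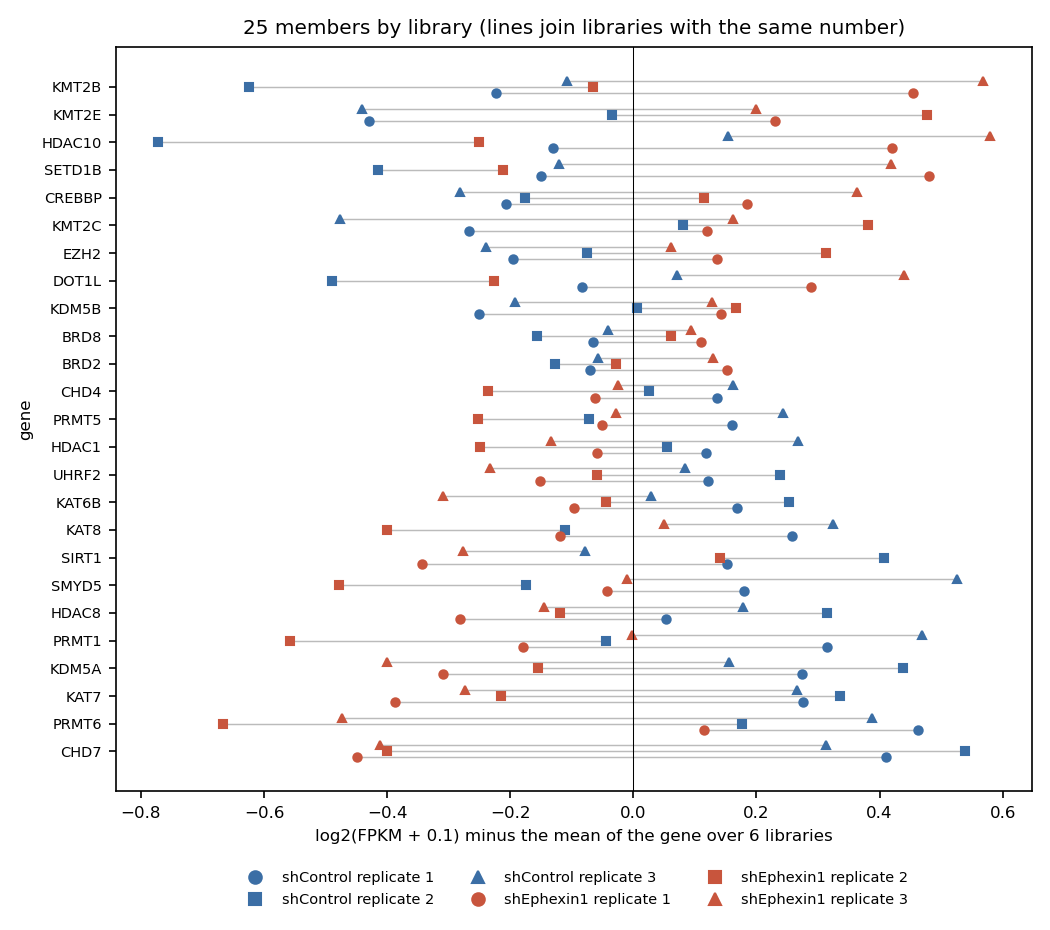
Value of each of the 25 members that passed with the block in each of the 6 libraries, as log2(FPKM + 0.1) minus the gene's mean, with shControl in blue, shEphexin1 in red, a marker shape per replicate number and lines joining libraries of the same number. CHD7, KAT7 and KDM5A do not overlap between the groups, PRMT1 does, and every line runs the same way within a gene.

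CHD7, a remodeller that works at enhancers, had the largest fall. The controls had 7.999, 8.76 and 7.47 FPKM and the shEphexin1 libraries 4.36, 4.52 and 4.48 FPKM. The groups lay far apart and the 3 shEphexin1 libraries were almost level. The mean went from 8.08 ± 0.649 to 4.46 ± 0.0819 FPKM (SD, n = 3), 55.2% of control, a log2 fold change of -0.84 (SE 0.124), with a limma adjusted p of 0.0125 and 0.00123 with the block. The gene is at chr8:61591299-61780587 (GRCh37, plus strand). CHD4, the NuRD remodeller, was at 77.1, 71.5 and 78.6 FPKM against 67.3, 59.6 and 69.0 FPKM. It fell with the block only, by 0.21 on the log2 scale (limma adjusted p 0.263, and 0.00943 with the block), and it was at 0.17 with the median of its arm, 12p (-0.383), subtracted. Of 9 CHD members 2 fell and none rose with the block, where 19.7% of all genes tested fell and 13.8% rose. CHD8 and CHD2, which remodel nucleosomes at active promoters, had log2 fold changes of -0.01 and -0.05, and CHD5, at 0.906 to 1.89 FPKM, had one of 0.48 (limma adjusted p 0.0574 with the block).

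The acetyltransferases went both ways. KAT7, the MYST enzyme that acetylates lysine 14 of histone H3, had 22.02, 23.0 and 21.9 FPKM in the controls and 13.9, 15.7 and 15.03 FPKM after knockdown. Every shEphexin1 library was below every control. The mean went from 22.3 ± 0.605 to 14.9 ± 0.904 FPKM (SD, n = 3), 66.6% of control. The log2 fold change was -0.58 (SE 0.104) with a limma adjusted p of 0.0220 (0.000978 with the block). It lies at chr17:47865986-47912388 (GRCh37, plus strand). CREBBP, a general coactivator acetyltransferase, went the other way, at 5.15, 5.26 and 4.88 FPKM against 6.78, 6.46 and 7.69 FPKM. It rose with the block (log2 fold change 0.44, limma adjusted p 0.0876, and 0.0183 with the block), with groups that did not overlap. Its paralog EP300 had a log2 fold change of 0.28 and did not pass (limma adjusted p 0.378, and 0.124 with the block). KAT8, which acetylates lysine 16 of histone H4, and KAT6B fell with the block by 0.31 and 0.30 on the log2 scale, while KAT2A, KAT2B, KAT5 and KAT6A were between -0.14 and 0.11. Of the 9 acetyltransferases 1 rose and 3 fell with the block, where 13.8% of all genes tested rose and 19.7% fell.

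KDM5A and KDM5B both remove methyl groups from lysine 4 of histone H3, and they moved in opposite directions. KDM5A had 23.4, 26.3 and 21.6 FPKM in the controls and 15.6, 17.4 and 14.7 FPKM after knockdown, so the groups did not overlap. The mean went from 23.8 ± 2.36 to 15.9 ± 1.38 FPKM (SD, n = 3). The log2 fold change was -0.58 (SE 0.124) with a limma adjusted p of 0.0378 (0.000749 with the block), and it was -0.19 with the median of its arm, 12p, subtracted. KDM5B was at 10.1, 12.1 and 10.5 FPKM against 13.3, 13.5 and 13.2 FPKM, a rise of 0.29 with the block (limma adjusted p 0.191, and 0.0235 with the block). The ratio of KDM5A to KDM5B within a library was 2.32, 2.18 and 2.05 in shControl and 1.17, 1.29 and 1.11 in shEphexin1. Each gene already differed without overlap, in opposite directions, so the ratio could not overlap and is a description only. Of 17 demethylases tested only these passed with the block (11.8%, where 33.5% of all genes tested did). The LSD1 gene KDM1A (-0.05) and KDM5C (0.03) lay near 0, and the low gene KDM6B, which removes methyl groups from lysine 27, was at 0.616 to 0.693 FPKM against 0.898 to 1.29 FPKM (log2 fold change 0.62, limma adjusted p 0.0556 with the block). KDM4E had a log2 fold change of 0.58 at 0.357 to 0.779 FPKM, and its close paralog KDM4D makes that value uncertain.

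The H3K4 methyltransferases held 4 of the 11 rises among the members (4 of 8 in the list, where 13.8% of all genes tested rose with the block), and KMT2C and KMT2E lie on 7q, where the arm median was 0.316. KMT2B, which methylates bivalent promoters, had 16.4, 12.4 and 17.8 FPKM in the controls and 26.4, 18.3 and 28.5 FPKM after knockdown. Replicate 2 was the lowest of both groups, and the groups did not overlap. The mean went from 15.6 ± 2.80 to 24.4 ± 5.37 FPKM (SD, n = 3), 157% of control. It rose with the block (log2 fold change 0.64, SE 0.207, limma adjusted p 0.118, and 0.000727 with the block). It lies at chr19:36208875-36229781 (GRCh37, plus strand).

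KMT2E, a PHD and SET domain protein of this family that is held to be inactive as an enzyme, was at 12.8, 16.8 and 12.7 FPKM against 20.2, 24.0 and 19.8 FPKM. Replicate 2 was the highest of both groups, and the groups did not overlap. The mean went from 14.1 ± 2.36 to 21.3 ± 2.32 FPKM (SD, n = 3). It rose with the block (log2 fold change 0.60, SE 0.152, limma adjusted p 0.0594, and 0.00102 with the block). KMT2C, an enhancer enzyme, was at 9.59, 12.2 and 8.27 FPKM against 12.6, 15.1 and 12.9 FPKM (log2 fold change 0.44, limma adjusted p 0.170, and 0.01002 with the block). SETD1B was at 3.26, 2.70 and 3.33 FPKM against 5.10, 3.12 and 4.88 FPKM, with overlap (0.46, limma adjusted p 0.0335 with the block). Of the 8 members of the list 4 rose and none fell with the block, and KMT2A, KMT2D, SETD1A and SETD7 did not pass, at 0.04, 0.16, 0.19 and -0.16. The median over the list was 0.32. With the arm median subtracted KMT2E was at 0.29 and KMT2C at 0.13, while KMT2B, on 19q, was at 0.63. With the GC and length correction KMT2B was at 0.47, KMT2E at 0.64, KMT2C at 0.45 and SETD1B at 0.31. SETD1B did not pass there (limma adjusted p 0.0595, and 0.0651 with the block as well). The ratio of KMT2E to KMT2A within a library went from 0.547, 0.591 and 0.587 to 0.829, 0.917 and 0.817.

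Of the 4 PRC2 core genes only EZH2, a catalytic subunit, passed with the block (25%, where 33.5% of all genes tested did). The EZH2 value was close to that of its chromosome arm. EZH2 had 21.8, 23.7 and 21.1 FPKM in the controls and 27.4, 31.0 and 26.0 FPKM after knockdown. No library of the groups overlapped, and the mean went from 22.2 ± 1.32 to 28.1 ± 2.56 FPKM (SD, n = 3), 127% of control. It rose with the block (log2 fold change 0.34, SE 0.113, limma adjusted p 0.126, and 0.00368 with the block). The median of its arm, 7q, was 0.316 over 516 genes, and EZH2 was at 0.02 with that subtracted. The paralog EZH1 was at 0.20 and the subunits EED and SUZ12 were at -0.13 and -0.03, none of them passing (limma adjusted p 0.126, 0.222 and 0.71 with the block). The ratio of EZH2 to EZH1 overlapped between the groups, at 4.58 to 5.69 and 5.05 to 6.32. The H3K9 methyltransferases, which write the mark of constitutive heterochromatin, had 0 of 6 members passing in either limma fit and 0 at an unadjusted p of 0.05 without the block, with EHMT1 at -0.01. Over all genes tested 33.5% passed with the block, and 23.3% had an unadjusted p of at most 0.05 without it (limma).

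Most deacetylases did not pass. HDAC1, a core deacetylase of the NuRD, Sin3 and CoREST complexes, was at 67.0, 64.2 and 74.4 FPKM against 59.3, 52.0 and 56.3 FPKM, without overlap. It fell with the block to 81.5% of control (log2 fold change -0.29, limma adjusted p 0.151, and 0.00867 with the block). HDAC2 was at 29.96, 33.5 and 28.2 FPKM against 25.1, 32.3 and 21.6 FPKM and did not pass (limma adjusted p 0.0514 with the block). HDAC8, a class I enzyme that acts on cohesin, fell with the block from 16.5, 19.8 and 18.01 FPKM to 13.1, 14.6 and 14.4 FPKM (-0.36, limma adjusted p 0.00506 with the block). HDAC10, a polyamine deacetylase, was at 5.34, 3.39 and 6.53 FPKM against 7.87, 4.91 and 8.81 FPKM (0.50, limma adjusted p 0.00624 with the block), but 55.8% of its exon bases are shared on the same strand with MAPK12, so that value is uncertain. Of the 11 deacetylases 1 rose and 2 fell with the block, where 13.8% of all genes tested rose and 19.7% fell.

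Among sirtuins only SIRT1, the nuclear NAD-dependent deacetylase, passed with the block, at 13.8, 16.5 and 11.8 FPKM against 9.79, 13.7 and 10.2 FPKM (-0.32, limma adjusted p 0.0234 with the block). The SIRT1 groups overlapped, and it was at -0.05 with the median of its arm, 10q, subtracted. SIRT5 had groups without overlap and narrowly missed (-0.27, limma adjusted p 0.0504 with the block). SIRT2 was at 0.15 and did not pass. The median over the 7 was -0.27, and 14.3% of them passed with the block, against 33.5% of all genes tested. The arginine methyltransferases gave 3 falls and no rise among 7 with the block, where 19.7% of all genes tested fell and 13.8% rose. PRMT1, the main asymmetric arginine methyltransferase, was at 111, 86.3 and 123.3 FPKM against 78.7, 60.5 and 88.9 FPKM, with overlap between the groups. Replicate 2 was lowest in both groups, and each shEphexin1 library was below its same-numbered control. It fell with the block to 71.2% of control (log2 fold change -0.49, limma adjusted p 0.165, and 0.000477 with the block).

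PRMT6 was at 6.89, 5.63 and 6.54 FPKM against 5.39, 3.10 and 3.55 FPKM (-0.68, limma adjusted p 0.112, and 0.00999 with the block), without overlap. PRMT5, the symmetric enzyme, was at 36.5, 31.1 and 38.7 FPKM against 31.6, 27.4 and 32.1 FPKM (-0.22, limma adjusted p 0.0139 with the block), with 28.2% of its exon bases opposite PRMT5-AS1, whose reads could not be told from its own without a strand setting. PRMT2, PRMT3, PRMT7 and PRMT9 lay between -0.15 and 0.04.

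Of the enzymes that place or remove DNA methylation, none passed, where 33.5% of all genes tested passed with the block. DNMT1, which copies methylation at replication, was at 51.8, 47.4 and 55.6 FPKM against 55.2, 49.6 and 60.5 FPKM, and the groups overlapped (0.09, limma adjusted p 0.694, and 0.125 with the block). DNMT3A and DNMT3B, which set it anew, were at -0.14 and 0.02, the DNMT1 partner UHRF1 at 0.12, and the TET demethylases TET1, TET2 and TET3 at -0.24, 0.04 and -0.04, none passing. UHRF2, a paralog of UHRF1, fell with the block from 24.8, 26.9 and 24.2 FPKM to 20.5, 21.9 and 19.4 FPKM (-0.30, limma adjusted p 0.00588 with the block). Among the remaining SET domain genes DOT1L, the lysine 79 methyltransferase, rose and SMYD5 fell with the block (0.33 and -0.35), and SETD8 was at -0.10. Of the 12 tested in that list 16.7% passed with the block, where 33.5% of all genes tested did. The bromodomain proteins BRD2 (62.1, 59.7 and 62.6 FPKM against 72.4, 63.9 and 71.3 FPKM) and BRD8 (50.5, 47.4 and 51.4 FPKM against 57.1, 55.2 and 56.4 FPKM) rose with the block by 0.17 and 0.18. Their limma adjusted p was 0.354 and 0.302, and 0.0281 and 0.0213 with the block. BRD7 was lower without overlap (-0.14) and did not pass (limma adjusted p 0.0730 with the block). Of the 7 bromodomain members 28.6% passed with the block, against 33.5% of all genes tested.

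Base composition moved with the replicate number. Over the 105 members, the Spearman correlation of a gene's deviation from its group mean with its GC content was 0.582, -0.805 and 0.747 in shControl replicates 1 to 3 and 0.617, -0.866 and 0.795 in shEphexin1 replicates 1 to 3. In the 26 members of lowest GC (33.0% to 43.6%), replicate 2 was above its group by a median of 0.151 in shControl and 0.187 in shEphexin1 on the log2 scale. In the 27 of highest GC (55.2% to 67.2%) it was below by 0.291 and 0.312. The members share their libraries, so these are descriptions. Over the same members the log2 fold change had a Pearson correlation of 0.336 and a Spearman correlation of 0.343 with GC content, and the members that rose with the block had a median GC of 52.6% against 47.4% for those that fell. With GC content and length corrected for, 21 members passed (7 higher and 14 lower, 30.6% of genes), 20 of them shared with the block, and with both corrections 23 passed (37.2% of genes). SIRT5 was added and BRD2, CREBBP, DOT1L, SETD1B and SIRT1 were lost with the GC and length correction alone. In replicates 1 and 3 alone 11 passed (17.3% of genes). With a term for replicate 2, 24 passed (29.2% of genes). A total of 19 passed in all 4 fits with the block, the GC correction, both, or a term for replicate 2. The share of all genes that passed in all 4 was not counted, so these 19 have no background beside them. Taken singly, the 4 fits passed 29.2% to 37.2% of all genes tested. The part of base composition in the differences between the groups was not tested beyond these fits.

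**Figure D4:**
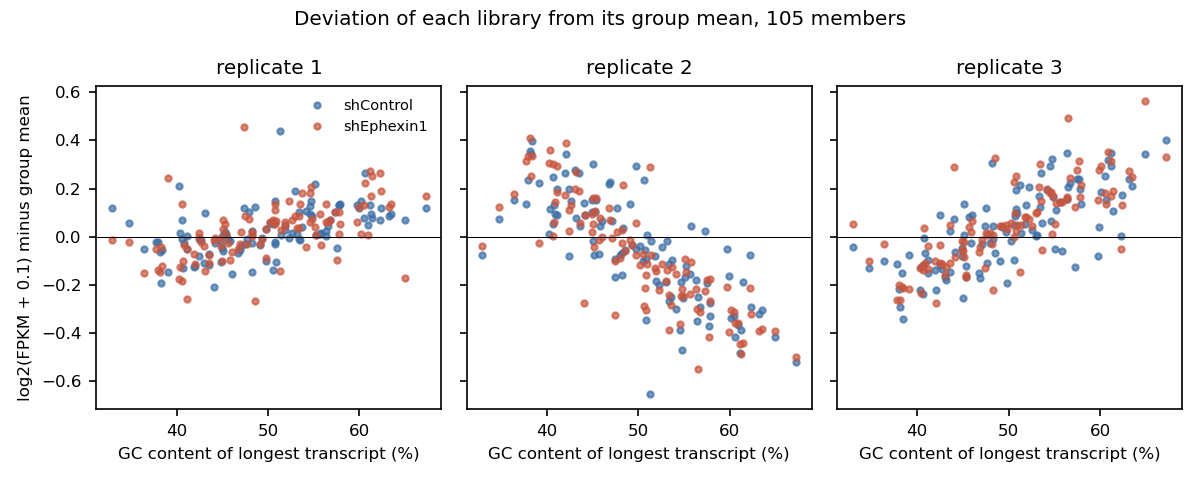
Deviation of each member from its group mean (log2) against GC content (%) in each of the 6 libraries. The slope is negative in replicate 2 of both groups and positive in the other 4 libraries.

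The differences also varied by chromosome arm. The median log2 fold change over tested genes was 0.316 on 7q (516 genes), -0.383 on 12p (225 genes), -0.275 on 10q (458 genes) and -0.213 on 8q (349 genes). EZH2, KMT2C and KMT2E lie on 7q, KDM5A and CHD4 on 12p, KAT6B and SIRT1 on 10q, and CHD7 on 8q. After each arm's median was subtracted, EZH2 was left at 0.02, KMT2C at 0.13, KMT2E at 0.29, KDM5A at -0.19, KAT6B at -0.03, SIRT1 at -0.05 and UHRF2 (9p, arm median -0.167) at -0.13. CHD4 turned from -0.21 to 0.17. CHD7 and KAT7 (17q) kept -0.63 and -0.43, and KMT2B (19q, 0.63), PRMT1 (19q, -0.50), CREBBP (16p, 0.45), HDAC1 (1p, -0.36) and PRMT6 (1p, -0.75) were left at the values given. KDM7A, also on 7q, was at -0.17 before and -0.49 after. Of the 25 members, 24 kept their sign. The part of these arm-wide differences in the members' own was not tested.

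Other chromatin genes outside the name pattern, in lists of subunits written for comparison, were read in the same fit. Of 75 tested, 2 fell (PHC1 and PCGF6) and 0 rose at a limma adjusted p of 0.05, where 4.32% of all genes tested fell and 2.69% rose. At an unadjusted p of 0.05, 4 were higher and 10 lower, where 23.3% of all genes tested passed (limma). With the block 10 rose and 17 fell (36.0%, near the 33.5% of all genes tested). The median log2 fold change was -0.04. PHC1 lies on 12p and PCGF6 on 10q, and with the arm medians subtracted they went from -0.54 to -0.15 and from -0.47 to -0.19. Among PRC1 subunits, the complex that ubiquitinates histone H2A, 5 of 16 fell and none rose with the block (PCGF3, PCGF5, PCGF6, CBX8 and PHC1). Of all genes tested 19.7% fell and 13.8% rose. In either direction 31.25% of the list passed, near the 33.5% of all genes tested. Among SWI/SNF subunits, which slide nucleosomes, 4 rose and 4 fell of 16 with the block (50% of the list, against 33.5% of all genes tested). The COMPASS subunits, partners of the H3K4 methyltransferases, had 1 rise (PAXIP1) and 1 fall (CXXC1) among 8 with the block (25% of the list). PAXIP1 lies on 7q and CXXC1 on 18q. With the arm medians subtracted PAXIP1 went from 0.46 to 0.14 and CXXC1 from -0.46 to -0.04. Of 16 enzymes that the name pattern missed, ASH1L and PRDM2 rose and WHSC1, PHF2 and JMJD6 fell with the block (31.25% of the list).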

How the data were processed

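Per the labels and the methods of the study, total RNA was isolated with TRIzol, stranded total RNA libraries were sequenced on a NovaSeq, and reads were aligned by the authors with TopHat2 (2.0.13) against GRCh37/hg19 and turned into FPKM values with Cuffdiff (Cufflinks 2.2.1), with geometric library normalization and pooled dispersion. The authors deposited 1 FPKM value per gene and library. The labels name a neo vector and the methods a hygro vector. The annotation and the strand setting of the counting are not given in the sources used here. Columns of FPKM were matched to samples by name.

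From the FPKM values, log2(FPKM + 0.1) was fitted with limma 3.58.1 (R 4.3.3, eBayes with a trend) as shEphexin1 minus shControl. Fold changes are on that scale, which understates the change of low genes. Tested were genes of 0.1 FPKM or more in 3 or more libraries (16020 of 26255), and p-values were adjusted by Benjamini-Hochberg over all of them. FPKM without read counts allow no count test, since whole reads could not be recovered, and the depth per library is unknown. The exact permutation test of 3 libraries against 3 can go no lower than 0.1. Genes were placed with GENCODE 44 lifted to GRCh37. The fit without the block was tested on simulated data with independent noise and changes larger than those of any member. That test covers neither the fit with the block nor changes as small as those given here.

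The labels give both groups replicate numbers 1 to 3. Deviations from the group means over 12638 genes with a mean of at least 1 FPKM correlated at 0.234, 0.639 and 0.513 between same-numbered libraries, all above 0.1, so the numbers were taken to pair the libraries. Between libraries of different numbers the correlations ran from -0.569 to 0.149. That of shControl replicate 3 with shEphexin1 replicate 1 (0.149) was also above 0.1, so pair 1, at 0.234, stands out least. The pairing rests on these correlations, since the labels name no shared culture or day, and the calls with the block rest on the pairing.

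The members, role lists and comparison lists were chosen with earlier results of these data known. Genes were named by rule: members with an adjusted p of at most 0.05, the 5 largest rises and falls, the most abundant member of each role list, members on arms 7q, 12p, 18p and 18q, and EZH2, EED, SUZ12, DNMT1, DNMT3A and DNMT3B. The rule named 27 members, and 12 that passed only with the block were added after their values were seen, as were the further members given for contrast. In all 22 alternatives were planned, and 3, the block with each pair left out, were chosen after seeing the data.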

Additional observations from a re-analysis of the deposited data

How the results depend on the processing

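The number of members passing at an adjusted p of 0.05 (limma) was 3. It was 25 with the replicate block (33.5% of genes), 21 with the GC and length correction (30.6%) and 23 with both (37.2%). It was 24 with a term for replicate 2 (29.2%), 11 in replicates 1 and 3 alone (17.3%) and 5 at an adjusted p of 0.1. Leaving out 1 library gave 0 to 4 members (0.968% to 8.2% of genes), and leaving out pair 1, 2 or 3 from the block gave 14, 22 or 17. KDM5A lost its call under median centring, quantile normalization and eBayes without trend. No setting gave a member past 2-fold at an adjusted p of 0.025. Of the other chromatin genes 2 passed, and 1 did with a pseudocount of 1 FPKM, median centring, quantile normalization, no trend or robust eBayes, 27 with the replicate block, 22 with the GC and length correction, 31 with both, 22 with a term for replicate 2 and 11 in replicates 1 and 3 alone. Leaving out 1 library gave 0 to 2, and leaving out pair 1, 2 or 3 from the block 13, 23 or 19. The median log2 fold change of the members was 0.020 under quantile normalization, -0.042 with the GC and length correction (also with the block), 0.026 with arm medians subtracted, -0.034 with the block without pair 3, and -0.068 to 0.023 without 1 library. NGEF passed with the replicate block (-0.53), the GC and length correction (-0.60, also with the block), a term for replicate 2 (-0.53), replicates 1 and 3 alone (-0.54) and the block without pair 1, 2 or 3 (-0.57, -0.54 and -0.47), and was at -0.64 to -0.40 without 1 library.

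Members near 0 that did not pass changed sign. EHMT1 was at 0.0055 under median centring, 0.052 under quantile normalization, 0.011 in replicates 1 and 3 alone and with the block without pair 2, 0.053 without pair 3, and -0.13 to 0.14 without 1 library. SUZ12 was at 0.020 under quantile normalization, 0.039 with the GC and length correction (also with the block), 0.011 with the block without pair 1, and -0.23 to 0.15 without 1 library. DNMT3B was at -0.011 with the GC and length correction (also with the block), -0.050 in replicates 1 and 3 alone and with the block without pair 2, and -0.13 to 0.12 without 1 library. KDM1A was at 0.025 under quantile normalization, and KMT2A at -0.030 with the block without pair 3. Without 1 library UHRF1 ran from -0.070 to 0.31, SIRT2 from -0.018 to 0.30 and KMT2A from -0.050 to 0.15. The causes were not tested. A count test was not run because whole reads could not be recovered, and the depth behind each FPKM value is unknown.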
